A study of Homo sapiens with 4 samples.

Results

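The promoters of the genes that drive and execute the epithelial-mesenchymal transition (EMT) were examined for H3K27me3 and H3K4me3 in JMJD3c-hESCs with and without induction of a histone demethylase. The set holds 8 genes, chosen by gene symbol from the 20242 promoters measured, and all 8 were found. They are the transcription factor pairs SNAI1 and SNAI2, ZEB1 and ZEB2, and TWIST1 and TWIST2, together with CDH1 and CDH2, the cadherin genes they act on.

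JMJD3c-hESCs derive from SEES-3, a human embryonic stem cell line that was made to express the reverse Tet-transactivator and then received, on a piggyBac vector, HA-tagged JMJD3c under a Tet-responsive element. JMJD3c is the catalytic part of JMJD3, an enzyme that removes methyl groups from lysine 27 of histone H3. All 4 libraries came from these cells in StemFit AK-03 medium without feeders; the −Dox cells were untreated and the +Dox cells received doxycycline (Dox) at 1 µg/ml and were collected on day 3. Each mark and condition has 1 library, stable clones were selected with puromycin, and whether 1 clone or several were used is not stated.

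EMT is the change in which cells of an epithelial sheet loosen their junctions and take on a migratory, mesenchymal form, as happens at gastrulation and when the neural crest leaves the neural tube. SNAI and ZEB proteins bind E-box sequences through zinc fingers and repress CDH1, which encodes the junction protein E-cadherin, while TWIST proteins bind E-boxes as basic helix-loop-helix dimers. Human embryonic stem cells grow as epithelial colonies that rely on E-cadherin. H3K27me3 is laid down by Polycomb complexes at silent developmental genes and H3K4me3 marks active or poised promoters, and promoters that carry both are called bivalent.

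Values are ChIP-seq signal, the sequencing coverage within 3 kb on either side of the transcription start, brought by the authors to a common number of reads. A single read contributed about 0.97 to 1.27 to a value, and whole libraries held about 2629351 to 3509244 reads, so approximate read numbers are given where they limit a statement. The +Dox libraries of both marks had the same step between values, 0.373, which corresponds to the same number of 2682085 reads. A true coincidence and a scaling of one library by the read number of the other cannot be told apart here, and in the latter case every ratio of one mark would be off by a constant factor. Ratios rescaled between the libraries of a mark, where given, do not depend on such a factor. Following the study's threshold, a promoter was called marked above a value of 20, about 15.8 to 20.6 reads. The change is the plain +Dox/−Dox ratio, and its 95% interval follows from an exact (Clopper-Pearson) interval for the share of the approximate reads that were +Dox. Since no library was repeated, no test between conditions was possible, and the intervals cover counting error only. Among 12 stem cell markers, 11 exceeded 20 for H3K4me3 alone in −Dox cells, against 54.2% of all promoters. The exception was POU5F1 with 5.41, for which the start used is 10049 bp from the canonical one. For H3K27me3 0 of the 12 exceeded 20, while 9.42% of all promoters did so along with H3K4me3 and 1.58% alone. Of 7 fibroblast markers, 3 exceeded 20 for H3K4me3 alone in both conditions, against 54.2% of all promoters in −Dox and 57.6% in +Dox cells. These 3 were THY1 with 92.0, COL1A2 with 45.6 and COL1A1 with 27.1 in −Dox cells, and the other 4 ranged from 1.42 to 8.55.

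In −Dox cells the members of each factor pair differed in their chromatin. ZEB1 and TWIST1 were bivalent, that is 2 of the 8 members, against 9.42% of all promoters. ZEB2 was above 20 for H3K27me3 alone, a class that held 1.58% of all promoters. SNAI1, CDH1 and CDH2 were above 20 for H3K4me3 alone (54.2% of all promoters), and SNAI2 and TWIST2 were unmarked (34.8%). Some of these assignments were close. ZEB2 missed the H3K4me3 threshold with a value of 19.1 and TWIST1 passed it with 20.5, about 20 and 21 reads, while CDH2 missed the H3K27me3 threshold with 17.5, about 14 reads. With a threshold of 10 in place of 20, 5 members would be bivalent, and with 30 only ZEB1 would be.

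**Figure D1:**
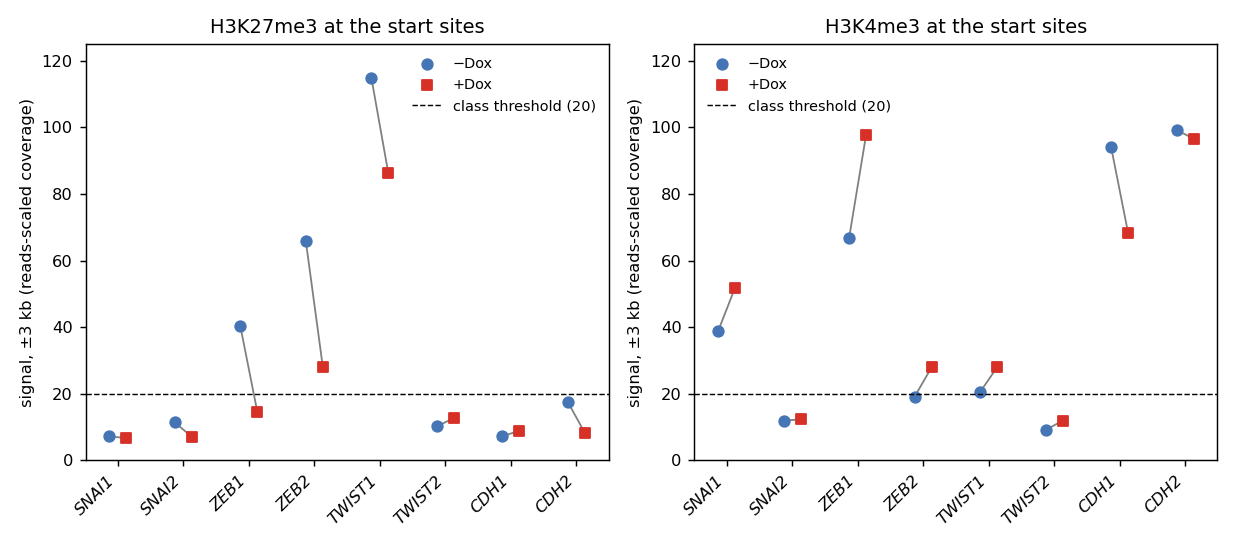
H3K27me3 (left) and H3K4me3 (right) signal within 3 kb of the start site of each gene, with 1 library per point, −Dox as circles and +Dox as squares, and a dashed line at the class threshold of 20. ZEB1, ZEB2 and TWIST1 stand above the other genes for H3K27me3 and are lower in +Dox cells, and CDH1 and CDH2 have high H3K4me3 in both conditions.

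ZEB1 encodes a zinc finger and homeodomain repressor and had the largest relative change of H3K27me3 among the members. Its H3K27me3 value (ENSG00000148516, chromosome 10, window 31604424 to 31610424) was 40.3 without Dox and 14.5 with it, about 32 and 12 reads, giving a ratio of 0.361 (0.173 to 0.736). H3K4me3 at the same promoter was 66.7 and 97.7, about 69 and 78 reads, a ratio of 1.46 (1.04 to 2.05). The interval thus lay below 1 for H3K27me3 and above 1 for H3K4me3, and ZEB1 was bivalent in −Dox and H3K4me3-only in +Dox cells, as were 39.1% of the promoters that were bivalent in −Dox cells. An H3K27me3 interval below 1 was found at 7.06% of all promoters and at 48.6% of bivalent ones. An H3K4me3 interval above 1 was found at 1.73% and 1.63%. Both together occurred at 33 promoters in all (0.171%), or 1.36% of the bivalent ones. The H3K27me3 ratio of ZEB1 was ordinary for a bivalent promoter, with 20.3% of them lower, whereas 97.4% of bivalent promoters had a lower H3K4me3 ratio. Scaled to a median ratio of 1 over promoters low in H3K4me3, the H3K4me3 interval of ZEB1 included 1 (0.985 to 1.94).

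The deposited start of ZEB1 belongs to a transcript with a retained intron and lies 721 bp from the canonical start, and the window also holds the start of the antisense gene ZEB1-AS1. The antibody signal cannot be assigned to either direction of transcription. The upstream sequence of ZEB1 is shown because SNAI and ZEB proteins recognise the E-box letters CAGGTG, or CACCTG on the other strand, and ZEB1 is the member at which both intervals excluded 1. The sequences are those of RefSeq (GRCh38.p14) and were found once each in GRCh37, the build of the deposited values. They run 5′ to 3′ on the plus strand, end before the first annotated UTR, and have the E-box in capitals. The first ends at a RefSeq start 78 bp from the deposited one (chr10:31607096-31607345), and the second lies before the canonical start (chr10:31607895-31608053).
ZEB1, upstream of the first start: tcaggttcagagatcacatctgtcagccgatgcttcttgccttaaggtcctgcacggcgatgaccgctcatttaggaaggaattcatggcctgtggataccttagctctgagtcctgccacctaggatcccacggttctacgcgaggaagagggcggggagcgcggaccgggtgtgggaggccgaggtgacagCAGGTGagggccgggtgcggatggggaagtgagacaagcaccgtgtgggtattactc
ZEB1, upstream of the canonical start: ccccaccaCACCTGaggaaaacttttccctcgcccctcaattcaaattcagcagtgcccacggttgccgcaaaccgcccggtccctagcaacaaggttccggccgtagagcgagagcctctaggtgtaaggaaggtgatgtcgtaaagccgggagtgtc
TWIST2, upstream of its start (chr2:239756476-239756672), for comparison: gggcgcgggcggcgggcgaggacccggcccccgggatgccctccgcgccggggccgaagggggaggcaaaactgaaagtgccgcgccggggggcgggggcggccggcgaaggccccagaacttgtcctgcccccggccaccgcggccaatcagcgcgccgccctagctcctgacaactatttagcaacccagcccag
The E-box begins 57 bases before the start in the first ZEB1 sequence and 242 bases before it in the second, and the TWIST2 sequence has 0. In RefSeq promoters of 300 bases (250 before and 50 after a start), 2 of the 7 ZEB1 entries contained either form, against 20.6% of 35116 entries of all genes, and the entry at the canonical start held 3. The single entries of ZEB2 and TWIST2 and the 2 of CDH2 held 0. Of the 8 members, 4 matched this table, and SNAI1, SNAI2, TWIST1 and CDH1 did not. A match is only a string of letters, and binding was not measured.

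ZEB2, the paralogue of ZEB1, is best known from neural crest and from Mowat-Wilson syndrome, in which it is mutated. H3K27me3 at ZEB2 (ENSG00000169554, chromosome 2, 145272118 to 145278118) was 65.8 without Dox and 28 with it, about 52 and 22 reads, giving a ratio of 0.425 (0.241 to 0.698). H3K4me3 was 19.1 and 28, a ratio of 1.46 (0.740 to 2.75). Its H3K27me3 interval was below 1 and its H3K4me3 interval included 1. ZEB2 was therefore counted as bivalent in +Dox cells, a class change seen at 5.64% of the promoters that were H3K27me3-only before induction, and it rested on about 22 reads of H3K4me3 against 20. The deposited start is 2568 bp from the canonical start, which still falls inside the window, and ZEB2-AS1 begins 427 bp away on the other strand. ZEB1 had 0.613 of the H3K27me3 of ZEB2 in −Dox and 0.52 in +Dox cells, and it had 3.49-fold more H3K4me3 than ZEB2 in both.

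TWIST1, a basic helix-loop-helix factor of cranial mesenchyme and neural crest, carried the most H3K27me3 of the set. The value (ENSG00000122691, chromosome 7, 19153547 to 19159547) was 115 without Dox and 86.1 with it, about 91 and 69 reads, giving a ratio of 0.750 (0.538 to 1.03). These levels exceeded 98.5% of all promoters in −Dox and 98.4% in +Dox cells. The interval included 1, and 70.8% of bivalent promoters had a lower ratio. H3K4me3 at TWIST1 was 20.5 and 28, about 21 and 22 reads, a ratio of 1.36 (0.710 to 2.59), and the promoter was bivalent in both conditions. The deposited start belongs to a transcript annotated for nonsense-mediated decay, 712 bp from the canonical start. FERD3L, which encodes a related helix-loop-helix factor and starts 28497 bp away, had H3K27me3 values of 87.5 and 92.5, so it too held the mark in both conditions, and its H3K4me3 was 18.5 and 9.32, a ratio of 0.503 (0.169 to 1.18).

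TWIST2, which acts in dermal and osteogenic mesenchyme, was below the threshold for both marks. Its H3K27me3 value (ENSG00000233608, chromosome 2, 239753673 to 239759673) was 10.3 without Dox and 12.7 with it, about 8 and 10 reads, above 76.1% and 87.1% of all promoters. Its H3K4me3 value was 9.12 and 11.9, about 9 reads in each. The ratios of 1.23 (0.437 to 3.59) and 1.31 (0.455 to 3.67) had wide intervals that included 1, so a change was not detectable at this depth. TWIST1 held 11.2-fold more H3K27me3 than TWIST2 before induction and 6.79-fold more after it.

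The SNAI genes encode zinc finger repressors that act early in gastrulation and in the neural crest, and neither had H3K27me3 above the threshold. SNAI1 (ENSG00000124216, chromosome 20, 48596517 to 48602517) had H3K27me3 values of 7.23 and 6.71, about 6 and 5 reads. Its H3K4me3 was 38.8 without Dox and 51.8 with it, about 40 and 41 reads, giving a ratio of 1.34 (0.836 to 2.10). The read numbers were thus nearly equal, with 1 read worth 0.972 in the −Dox and 1.26 in the +Dox library. SNAI2 (ENSG00000019549, chromosome 8, 49831299 to 49837299) was low for both marks, with 11.4 and 7.08 for H3K27me3 and 12.0 and 12.3 for H3K4me3. Its ratios were 0.621 (0.192 to 2.06) and 1.03 (0.417 to 2.72). For both SNAI genes every interval included 1. RNF114, a ubiquitin ligase gene that starts 46583 bp from SNAI1, was H3K4me3-only, with H3K4me3 values of 65.3 and 96.6.

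CDH1 encodes E-cadherin, the epithelial cadherin, and CDH2 encodes N-cadherin, which replaces it in many mesenchymal and neural cells. In these stem cells both promoters carried much H3K4me3 and little H3K27me3. CDH1 (ENSG00000039068, chromosome 16, 68768195 to 68774195) had H3K4me3 values of 94.0 without Dox and 68.2 with it, about 97 and 54 reads, giving a ratio of 0.726 (0.506 to 1.01). This was the lowest H3K4me3 ratio of the 8 members, and 16% of all promoters had a lower one. The interval just included 1, and lay below it (0.478 to 0.957) under the scaling over low promoters named above. H3K27me3 at CDH1 was 7.23 and 8.95, about 6 and 7 reads.

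CDH2 (ENSG00000170558, chromosome 18, 25754094 to 25760094) had H3K4me3 values of 99.2 and 96.6, about 102 and 77 reads, a ratio of 0.974 (0.716 to 1.32). H3K27me3 at CDH2 was 17.5 without Dox and 8.20 with it, about 14 and 7 reads, giving a ratio of 0.469 (0.168 to 1.30). The value was lower after induction, but the interval included 1. In −Dox cells CDH1 had 0.948 of the H3K4me3 of CDH2, and in +Dox cells 0.707.

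Across the set, the H3K27me3 ratio was below 0.5 at 3 of 8 members (ZEB1, ZEB2 and CDH2), against 21.5% of all promoters and 40.8% of bivalent ones. It was lower in +Dox cells at 6 of 8, against 56.6% of all promoters and 87.6% of bivalent ones, and higher at TWIST2 and CDH1, against 43.4% of all and 12.4% of bivalent ones. The interval lay below 1 at ZEB1 and ZEB2, against 7.06% of all promoters and 48.6% of bivalent ones. It lay above 1 at 0 members, against 1.59% of all promoters and 2.15% of bivalent ones. No member had an H3K27me3 or H3K4me3 ratio above 2, which 14.7% and 6.09% of all promoters and 0.0524% and 0.157% of bivalent ones had. The median log2 H3K27me3 ratio was −0.55 over the members, −0.15 over all promoters and −0.81 over bivalent ones. After scaling of the libraries to the same total, ZEB1 alone remained below 0.5, with 0.424, ZEB2 stood at 0.5, and SNAI1 was above 1 (1.09). For H3K4me3 the ratio was above 1 at all 6 factors (5 when scaled over low promoters, where SNAI2 stood at 0.971) and below 1 at both cadherins, while 47.4% of all promoters and 32.4% of bivalent ones were above 1, and 52.6% and 67.6% below it. The H3K4me3 ratio was below 0.5 at 0 members, against 5.33% of all promoters and 4.3% of bivalent ones, and its interval lay below 1 at 0 members, against 3.06% and 10.1%. The median log2 H3K4me3 ratio was 0.43 over the factors, 0.40 over all members and −0.03 over all promoters. The interval excluded 1 only at ZEB1. Lower H3K27me3 and higher H3K4me3 together were found at 5 of the 6 factors, against 26.6% of all promoters and 31.1% of bivalent ones. SNAI1 dropped out of these 5 at the same total, and SNAI2 when scaled over low promoters. Promoters unmarked in −Dox cells had a median H3K4me3 ratio of 1.11. The members share their 4 libraries, and their ratios are not independent repeats.

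**Figure D2:**
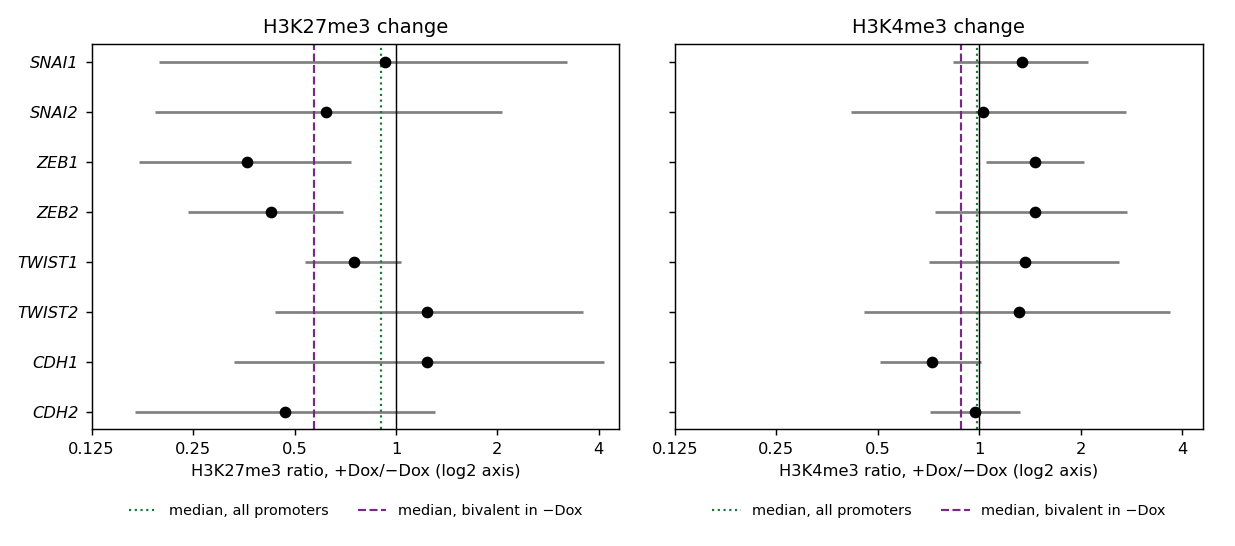
+Dox/−Dox ratio of H3K27me3 (left) and H3K4me3 (right) for each gene on a log2 axis, with 95% counting intervals as bars, a solid line at 1 and the medians of all and of bivalent promoters. The H3K27me3 bars of ZEB1 and ZEB2 lie below 1, and the H3K4me3 points of the 6 factors lie to the right of 1 (SNAI2 to its left, at 0.971, if scaled over low promoters) and those of CDH1 and CDH2 to its left.

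The change of one mark relative to the other was taken as the log2 H3K4me3 ratio minus the log2 H3K27me3 ratio. It was highest at ZEB1 with 2.02 and at ZEB2 with 1.78, above 93.4% and 91.2% of all promoters. CDH2 followed with 1.05, TWIST1 with 0.86, SNAI2 with 0.73 and SNAI1 with 0.53. TWIST2 was at 0.08, and CDH1 alone was negative without rescaling, at −0.77, with 23.2% of all promoters lower. At the same total TWIST2 had ratios of 1.34 for H3K4me3 and 1.45 for H3K27me3, so its value was then negative too. Scaled over low promoters these ratios were 1.24 and 1.31, again a negative value. No intervals were computed for these values, and H3K27me3 rests on about 6 and 7 reads at CDH1 and 14 and 7 at CDH2. Among promoters bivalent in −Dox cells, 90.8% had a smaller value than ZEB1 and 58.1% a smaller one than TWIST1. The class was the same in both conditions at 6 of 8 members and differed at ZEB1 and ZEB2, while it differed at 7.78% of all promoters. After induction the bivalent members numbered 2 (5.07% of all promoters) and the H3K4me3-only members 4 (57.6%). Unmarked were 2 (35.7%), and 0 had H3K27me3 alone (1.66%).

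**Figure D3:**
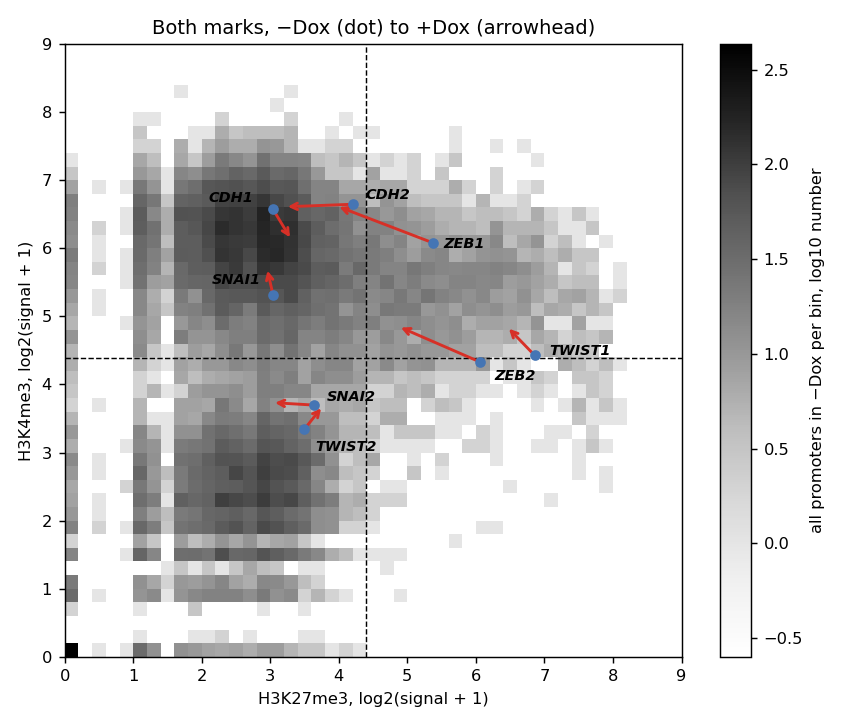
H3K27me3 (horizontal) against H3K4me3 (vertical) as log2(signal + 1), with all 20242 promoters in −Dox cells as grey bins, dashed lines at the class threshold, and an arrow for each gene from −Dox (dot) to +Dox (head). ZEB1 crosses from the bivalent to the H3K4me3-only field, ZEB2 passes into the bivalent field, and TWIST1 stays among the promoters richest in H3K27me3.

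The windows of 5 of the 8 members were rich in CpG dinucleotides, a feature that the choice of genes did not use. The CpG observed/expected ratio of all 8 exceeded the median of 0.439 over 18244 windows with sequence. It was 0.846 at ZEB1, 0.810 at CDH2, 0.751 at TWIST2, 0.714 at TWIST1 and 0.646 at ZEB2, and these 5 exceeded 90% of windows. CDH1 with 0.457, SNAI2 with 0.455 and SNAI1 with 0.446 were near the middle. TWIST2 combined this CpG content with values below the threshold for both marks. Of 309 windows with a ratio at or above that of TWIST2, 65.7% were H3K4me3-only, 29.4% bivalent and 3.88% unmarked, and of 6061 unmarked windows only 12 reached it. GC content ranged from 44.3% at SNAI2 to 57.0% at TWIST2, with a median of 48.5% over all windows.

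**Figure D4:**
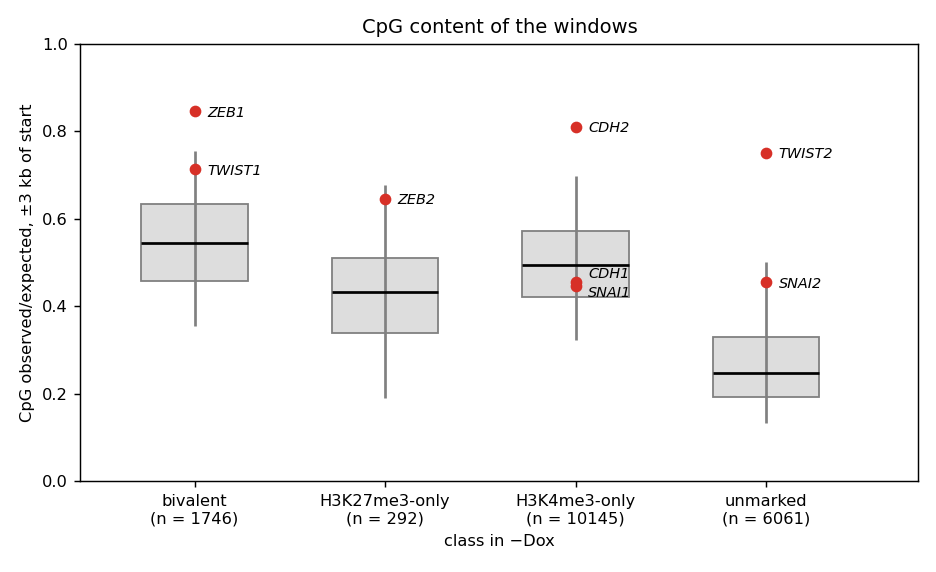
CpG observed/expected ratio of the windows by class in −Dox cells, with boxes from the 25th to the 75th percentile, a line at the median, whiskers from the 5th to the 95th percentile and the members as red dots. TWIST2 lies above the upper whisker of the unmarked windows, and ZEB1 and CDH2 lie above the whiskers of their classes.

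The promoters most like each member over the 4 libraries were found by Euclidean distance on log2(signal + 1), with the 2 nearest named. TWIST1 was nearest to SPAG6 (distance 0.0883), whose H3K27me3 was 118 and 85.4 and whose H3K4me3 was 21.7 and 28.3, and then to SSTR1 (0.298). ZEB1 was nearest to MYL3 (0.348), which had 38.4 and 16.8 for H3K27me3 and 64.1 and 80.5 for H3K4me3, and to CDCP1 (0.399). ZEB2 was nearest to PDE1B (0.296) and RGS6 (0.426). SNAI1 was nearest to HNRNPA1L2 (0.128) and CREBL2 (0.129), and SNAI2 to TMEM190 (0.274) and SLC25A43 (0.295). TWIST2 was nearest to GPNMB (0.195) and ZNF490 (0.275), CDH1 to FAM200B (0.101) and CAB39 (0.177), and CDH2 to DDHD1 (0.147) and SOGA2 (0.218). ZEB1 had the largest distance to its nearest promoter.

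Other genes of the transition were taken from lists of symbols. Of 16 other EMT transcription factors, 8 were bivalent in −Dox and 5 in +Dox cells, against 9.42% and 5.07% of all promoters. The H3K27me3 ratio was below 0.5 at 4 (21.5% of all promoters and 40.8% of bivalent ones), with a median log2 ratio of −0.35. KLF8, among these 4, had about 3 reads in −Dox cells and 0 in +Dox cells. The interval lay below 1 at 4 (7.06% of all promoters and 48.6% of bivalent ones) and above 1 at 0 (1.59% and 2.15%). FOXC1, a forkhead factor of mesoderm, had a ratio of 0.424 (0.189 to 0.985) and SOX9, a factor of cartilage and neural crest, one of 0.437 (0.227 to 0.809), and both were H3K4me3-only in +Dox cells. Among those with a mean above 20, PAX3 and FOXC2 had the highest ratios, 1.21 and 1.10, with intervals that included 1. Over all 16 the H3K27me3 ratio was above 2 at 2 (14.7% of all promoters), TCF3 and HMGA2. These rest on about 2 and 3 reads in −Dox cells and 7 each in +Dox cells. The lowest H3K4me3 ratio among means above 20 was 0.740 (0.461 to 1.18) at GATA6.

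Among 7 relatives of the factors with a row, the H3K27me3 ratio was below 0.5 at 1 (21.5% of all promoters) and the median log2 ratio was −0.06, and SCX, the remaining gene of that list, was not analysed here. TCF15, the paraxial mesoderm factor paraxis, had 39.9 and 17.9, a ratio of 0.448 (0.219 to 0.861), and MSC and TCF21 had 0.550 (0.338 to 0.870) and 0.602 (0.385 to 0.950). SCRT1, a neuronal member of the Snail superfamily, had the opposite direction, with 79.9 without Dox and 143 with it and a ratio of 1.79 (1.3 to 2.46), and an H3K4me3 ratio of 0.646 (0.415 to 0.989). An H3K27me3 interval above 1 was found at 1.59% of all promoters. Its relative SCRT2 had an H3K4me3 ratio of 0.529 (0.308 to 0.843).

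Of 27 mesenchymal genes, 7 were bivalent in −Dox cells and 3 in +Dox cells, against 9.42% and 5.07% of all promoters. The H3K27me3 ratio was below 0.5 at 8 of the 27, against 21.5% of all promoters and 40.8% of bivalent ones, with a median log2 ratio of −0.61. The interval lay below 1 at 6, against 7.06% and 48.6%. VIM, the intermediate filament vimentin, had 31.6 and 10.8, a ratio of 0.343 (0.146 to 0.785), while its H3K4me3 was 74.9 and 77.2. CDH6, a type II cadherin, and ITGB3, an integrin subunit, had ratios of 0.339 (0.158 to 0.714) and 0.344 (0.160 to 0.666), and in +Dox cells both were unmarked, with H3K4me3 values of 16.8 and 18.3. The highest H3K27me3 ratio among means above 20 was 0.750 (0.554 to 1.01) at PDGFRA, a receptor of mesenchymal growth factors, followed by LOX, which crosslinks collagen, with 0.498 (0.306 to 0.804). The highest H3K4me3 ratio among means above 20 was that of TAGLN, a smooth muscle gene, with 1.95 (0.940 to 3.76).

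Most of the 29 epithelial junction and adhesion genes had the class of CDH1. In −Dox cells 23 were H3K4me3-only and 2 bivalent, against 54.2% and 9.42% of all promoters. The same numbers were found in +Dox cells, against 57.6% and 5.07%. H3K27me3 had a median of 5.70 in −Dox cells, and its ratio was below 0.5 at 4 and above 2 at 5 of the 29, against 21.5% and 14.7% of all promoters. The median log2 ratio was −0.24, and the median log2 H3K4me3 ratio was 0.02. The interval of H3K4me3 lay below 1 at 0 of them and above 1 at 0, against 3.06% and 1.73% of all promoters. TJP1, the tight junction protein ZO-1, was among the bivalent ones and had an H3K27me3 ratio of 0.715 (0.453 to 1.16). The H3K4me3 ratios ran from 0.706 (0.478 to 1.01) at PKP2 to 1.34 (0.831 to 2.12) at ST14 among those with a mean above 20. PKP2 had an H3K27me3 value of 11.4 in −Dox cells, about 9 reads, and is listed at 0 in +Dox cells. Of 12 epithelial factors that oppose EMT, 7 were H3K4me3-only and 1 was bivalent in −Dox cells, against 54.2% and 9.42% of all promoters. The median log2 H3K27me3 ratio was −0.48 and rests mostly on promoters low in the mark, with a median value of 7.99 in −Dox cells. With means under 10 left out it was −0.0084, from 4 genes. The bivalent one was KLF4, with ratios of 0.476 (0.256 to 0.826) for H3K27me3 and 0.594 (0.416 to 0.858) for H3K4me3. The median log2 H3K4me3 ratio was −0.36, against −0.03 over all promoters, the ratio was below 0.5 at 3 of the 12 (5.33% of all promoters), and the interval lay below 1 at 2 (3.06%), KLF4 and the splicing factor gene ESRP1 with 0.709 (0.548 to 0.906). The highest H3K4me3 ratio of this list among means above 20 was 1.14 (0.865 to 1.51) at GRHL2, an activator of CDH1.

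**Figure D5:**
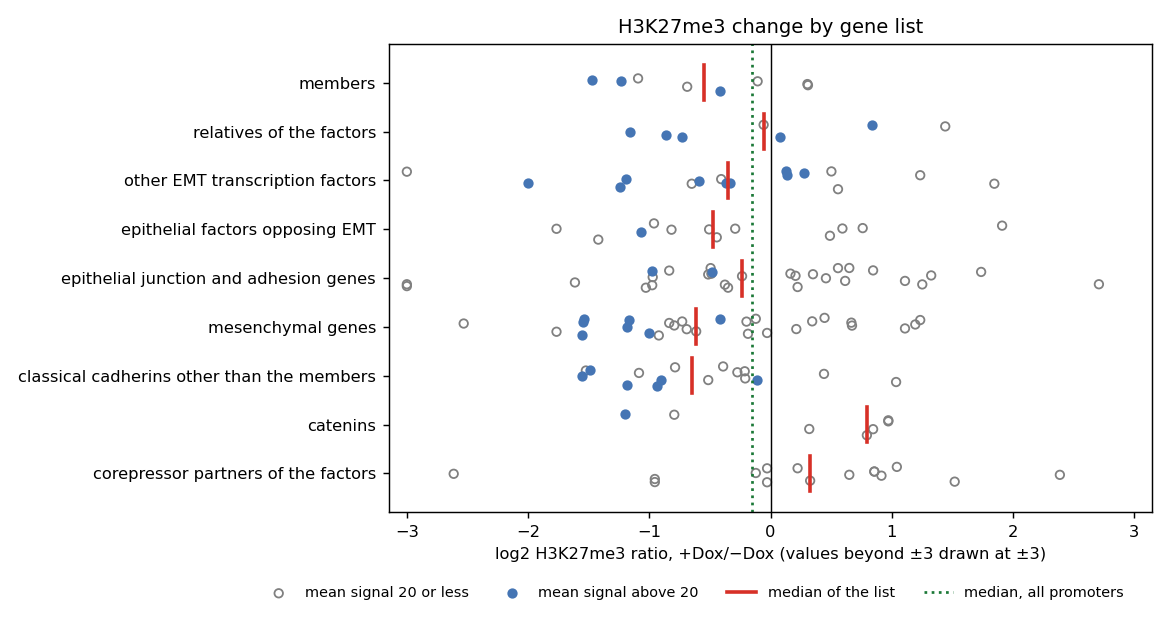
Log2 H3K27me3 ratio (+Dox/−Dox) of every gene of the members and of 8 lists, 1 point per gene, filled where the mean signal exceeds 20, with a bar at the median of each list and a dotted line at the median of all promoters. Filled points lie mostly left of 0 among mesenchymal genes and classical cadherins, and the lists of catenins and corepressors consist almost wholly of open points from promoters low in H3K27me3.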

How the data were processed

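H3K27me3 and H3K4me3 were measured by ChIP-seq in JMJD3c-hESCs with and without Dox, 1 library each. Per the study's methods, MiSeq reads of 150 bp from one end were aligned by the authors to hg19 (GRCh37) with Bowtie2, and mitochondrial reads were removed. The submitters' processing notes also name CASAVA 1.4. The deposited values are signal, ngs.plot coverage summed over 3 kb on each side of 1 start per Ensembl gene. Versions of Bowtie2, ngs.plot and the annotation are not given in the sources used here, nor whether the study's scaling to density after transcription ends was applied to this signal. No input was used here, and a loss common to the whole genome would not show after scaling to reads.

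In each file 100% of values were whole multiples of a step (tolerance 0.001 steps), taken as 1 read at 1 data point. The mean of values at 3 or 4 steps gave 3.34 to 3.41 data points per read, and hence approximate reads, in all 170885 to 945697 in the windows. Ratios had no pseudocount, and promoters at 0 in −Dox were left out (19462 with a ratio for H3K27me3 and 19678 for H3K4me3). Starts came from GENCODE 44 on GRCh37, with 90.1% of transcripts matched. Python 3.11.15, pandas 2.3.3 and scipy 1.17.1 were used. Alternatives were scaling to the same total, scaling to a median ratio of 1 over promoters with a mean of 20 or less, a pseudocount of 5, leaving out means under 10, leaving out members with a start over 1 kb from the canonical one, and class thresholds of 10 and 30. The members and lists were chosen with earlier results of these data known. Named were the members, their 2 nearest promoters, rows starting within 50 kb, and in each list the 3 lowest and 2 highest H3K27me3 ratios among means above 20, with the lowest and highest for H3K4me3. Genes beyond this rule (POU5F1, COL1A1, SCX, ESRP1, CTNNA1, CTNNA2, CTNNB1, CTNND1) were named after their values were seen, and some genes under it are not reported here.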

Additional observations from a re-analysis of the deposited data

How the results depend on the processing

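Of the recomputed medians and counts of members and lists, 78 stayed within the interval of the reported value or, for counts, within 1.5 times. All 61 recomputed ratios of single members stayed within their own interval. The interval of a median spans ratios of the listed genes, which are not repeats, −1.47 to 0.31 for the 8 members. Both kinds of interval are wide, so staying within them says little about stability. Of the remaining 4, the count of members below 0.5 and the catenin median, both for H3K27me3, moved at the same total. The bivalent count moved at thresholds of 10 and 30. No cause beyond these settings was tested. Scaling to the same total multiplied H3K27me3 ratios by 1.18, left 1 member below 0.5, and raised the median log2 ratio of the catenins to 1.03, which was −1.20 from the single gene left once means under 10 were left out. Some list medians near 0 changed sign. For H3K27me3 that of the relatives of the factors was 0.18 at the same total and 0.03 when scaled over low promoters. For H3K4me3 that of the junction genes was −0.06 when scaled over low promoters, and at the same total that of the mesenchymal genes was 0.03 and that of the corepressors 0.00042. The number of bivalent members was 5 at a threshold of 10 and 1 at 30. The members' median log2 ratio was −0.32 to −1.09 for H3K27me3 and 0.32 to 0.44 for H3K4me3. Scaling over low promoters divided H3K4me3 ratios by 1.06, so the ZEB1 interval then included 1 and the CDH1 interval did not. No paired analysis was possible because only 1 library was made per group, and leaving one out would have left no comparison. Depth limits SNAI1, SNAI2, TWIST2, CDH1 and CDH2 for H3K27me3, which rest on 5 to 14 reads.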

Other observations

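Of 16 classical cadherins other than CDH1 and CDH2, 6 were bivalent in −Dox (9.42% of all promoters) and 4 in +Dox cells (5.07%). In −Dox cells 4 were H3K4me3-only (54.2%) and 6 unmarked (34.8%), among the latter CDH18 and CDH9. The starts used for them lie 587673 and 82564 bp from the canonical ones, so these windows do not hold the canonical promoter. The H3K27me3 ratio was below 0.5 at 5 (21.5% of all promoters and 40.8% of bivalent ones), the interval lay below 1 at 5 (7.06% and 48.6%), and the median log2 ratio was −0.65. CDH7 had 49.1 and 17.5 with a ratio of 0.357 (0.177 to 0.665), CDH11, a cadherin of mesenchyme and bone, had 73.8 and 32.4 with a ratio of 0.440 (0.267 to 0.712), and CDH4 had 0.535 (0.281 to 0.930). CDH22 had a ratio of 0.926 (0.608 to 1.36). CDH6 and CDH11 also belong to the mesenchymal list, so the lists are not independent. The median log2 H3K4me3 ratio of the cadherins was −0.11, and the ratios ran from 0.658 (0.398 to 1.11) at CDH22 to 1.28 (0.852 to 1.96) at CDH20 among those with a mean above 20.

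The catenins and the corepressors through which the factors act had little H3K27me3. Of 7 catenins, 1 was bivalent and 6 were unmarked in −Dox cells, against 9.42% and 34.8% of all promoters. CTNND2, the neuronal delta-catenin, was the bivalent one, with 47.2 and 20.5, a ratio of 0.435 (0.221 to 0.784). The median log2 H3K27me3 ratio of the catenins was 0.79 and rests on promoters with a median value of 4.94 in −Dox cells. The start used lies 4637 bp from the canonical one at CTNNB1, which encodes beta-catenin, 8559 bp at CTNND1, 142447 bp at CTNNA1 and 327820 bp at CTNNA2, so these windows do not hold the canonical promoter. Of 15 corepressor partners, 13 were H3K4me3-only in −Dox cells, against 54.2% of all promoters. The other 2, HDAC2 and LIMD1, were unmarked, with starts 40160 and 39357 bp from the canonical ones. The median log2 ratios of the 15 partners were 0.33 for H3K27me3 and −0.04 for H3K4me3. Among those with a mean above 20, the H3K4me3 ratios ran from 0.807 (0.591 to 1.11) at RCOR1 to 1.3 (0.926 to 1.80) at WTIP. Of the lineage markers, 5 of 6 mesendoderm and 3 of 4 neuroectoderm genes were bivalent in −Dox cells, against 9.42% of all promoters. Their median log2 H3K27me3 ratios were −0.45 and −0.29. The mesendoderm genes differed among themselves. FOXA2, an endoderm factor, had ratios of 0.236 (0.136 to 0.373) for H3K27me3 and 1.47 (1.01 to 2.21) for H3K4me3, while SOX17, another endoderm factor, had 1.05 (0.834 to 1.33) and 0.191 (0.0441 to 0.489) and was H3K27me3-only in +Dox cells. T, the mesoderm factor brachyury, had 1.06 (0.791 to 1.41) and 1.08 (0.748 to 1.56), and GSC had 0.795 (0.594 to 1.07) and 0.757 (0.511 to 1.11).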
